A study of Mus musculus with 22 samples.

Results

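Cholesterol synthesis in inguinal white fat was followed through 9 genes: Srebf2 and Insig1, which regulate the pathway, and Hmgcs1, Mvd, Fdps, Fdft1, Sqle, Lss and Cyp51, which encode enzymes along it. They were taken by symbol from the 22180 genes tested, and all 9 were found, each with 1 probe set. Expression was measured on Affymetrix whole-transcript arrays, 1 mouse per array. Null mice at 5 °C (n = 5), wild-type mice at 5 °C (n = 5), null mice at 28 °C (n = 6) and wild-type mice at 28 °C (n = 6) were compared. All mice were males of 3 to 4 months fed chow. The null mice lacked PPARα, the fatty acid receptor encoded by Ppara, and the labels name no Cre or promoter for the allele. Both genotypes came from Jackson stocks on C57Bl/6J, with over 10 generations of backcrossing, and were bred further at the authors' facility. Every group spent 5 weeks at 28 °C, a temperature near thermoneutrality for mice. The cold groups then passed 1 week at 21 °C and 10 days at 5 °C, while the others stayed at 28 °C. Of 10 mice housed per group, only those on arrays are described, and the sources used here do not say how they were picked.

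Cells make cholesterol from acetyl-CoA by way of mevalonate, farnesyl diphosphate, squalene and lanosterol. When sterols in the endoplasmic reticulum run low, SREBP-2, the product of Srebf2, is carried to the Golgi by SCAP, cleaved, and enters the nucleus, where it binds sterol regulatory elements of the pathway's genes. INSIG proteins hold SCAP and SREBP in the endoplasmic reticulum when sterols are plentiful, and Insig1 is itself an SREBP target. In white fat most free cholesterol lies at the lipid droplet and in membranes, and much of it is taken up from lipoproteins rather than made in the adipocyte.

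RefSeq promoter sequence on build GRCm38.p6 was at hand for 6 of the 9 genes: Srebf2, Insig1, Hmgcs1, Mvd, Lss and Cyp51. The 250 bases before each listed transcript start were searched on both strands, and positions below count back from that start. For Lss the listed start lies inside the gene's annotated span. The 4 promoters printed here are those that hold a match to the sterol element with up to 1 mismatch, shown because it is the motif known for SREBP binding. Capitals mark such matches and CCAAT boxes (ATTGG where the box is on the other strand), written 5′ to 3′ on the gene's strand. The windows are chr15:82147019-82147268 (plus strand) for Srebf2, chr5:28071162-28071411 (plus) for Insig1, chr13:119690101-119690350 (plus) for Hmgcs1 and chr5:4104698-4104947 (minus) for Cyp51.
Srebf2: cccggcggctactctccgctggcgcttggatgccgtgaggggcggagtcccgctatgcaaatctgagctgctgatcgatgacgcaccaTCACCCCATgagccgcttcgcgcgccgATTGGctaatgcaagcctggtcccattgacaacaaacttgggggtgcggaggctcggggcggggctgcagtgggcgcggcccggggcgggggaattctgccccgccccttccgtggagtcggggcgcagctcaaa
Insig1: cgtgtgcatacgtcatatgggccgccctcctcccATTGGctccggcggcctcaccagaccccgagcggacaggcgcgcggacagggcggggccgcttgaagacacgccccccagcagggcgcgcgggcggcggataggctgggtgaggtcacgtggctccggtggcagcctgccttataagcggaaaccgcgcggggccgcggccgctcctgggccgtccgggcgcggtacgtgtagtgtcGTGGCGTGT
Hmgcs1: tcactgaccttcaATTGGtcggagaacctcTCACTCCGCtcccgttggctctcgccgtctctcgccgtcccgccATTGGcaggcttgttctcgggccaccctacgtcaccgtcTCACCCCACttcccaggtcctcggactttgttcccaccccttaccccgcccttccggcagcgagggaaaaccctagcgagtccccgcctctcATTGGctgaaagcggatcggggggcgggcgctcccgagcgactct
Cyp51: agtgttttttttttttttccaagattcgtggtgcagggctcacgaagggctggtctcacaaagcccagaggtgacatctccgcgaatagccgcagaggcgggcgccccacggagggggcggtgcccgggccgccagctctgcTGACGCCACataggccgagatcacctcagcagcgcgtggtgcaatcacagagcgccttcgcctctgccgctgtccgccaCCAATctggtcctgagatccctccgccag

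The sterol element searched was TCACNCCAC. It was matched exactly in 1 of 6 promoters, that of Hmgcs1 at -137 to -129, and in 1.05% of all 32851 promoters of the same length. With up to 1 mismatch it was matched in 4 of 6, against 20.7% of all promoters. A second such match of Hmgcs1 lay at -220 to -212, and the others lay at -162 to -154 in Srebf2, -108 to -100 in Cyp51 and -9 to -1 on the opposite strand in Insig1. CCAAT, the box bound by NF-Y, was present in 6 of 6, against 33.8% of all promoters. The Hmgcs1 promoter held 3 such boxes and the Mvd promoter held 2, with 1 in each of the others. GGGCGG, a GC box of the kind bound by Sp1, was also present in 6 of 6, against 32.7%. CACGTG, an E-box, was present in Insig1 alone of the 6, at -101 to -96, and in 6.02% of all promoters. No match overlapped a match of a different motif. These are matches of letters only, and no binding was measured.

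**Figure D1:**
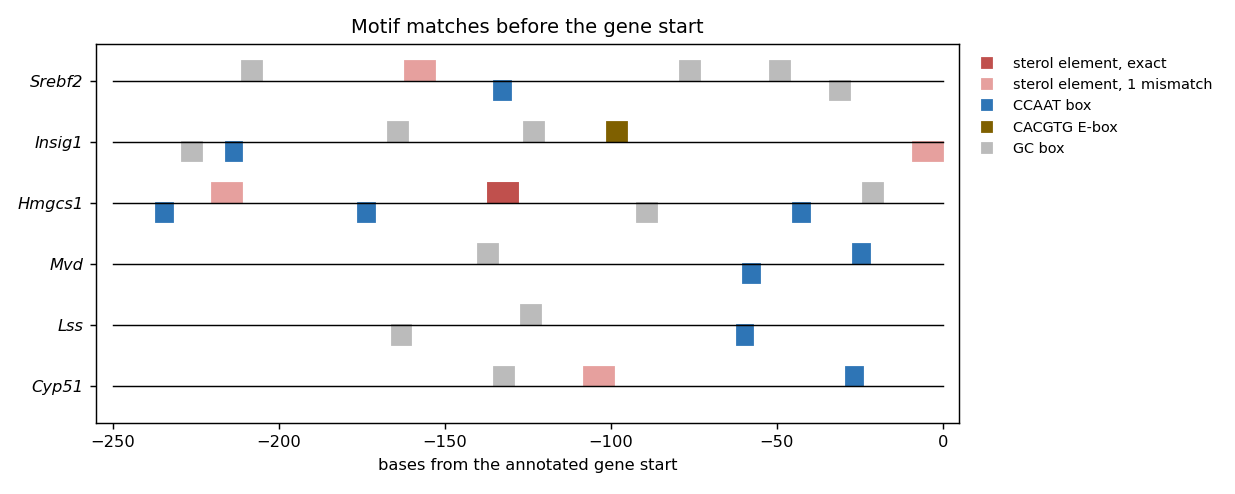
Motif matches in the 250 bases before the listed transcript start of 6 genes. The x axis gives bases from the start, boxes above each line are on the gene's strand and boxes below it on the other strand, and colours give the motif. Every line carries at least 1 CCAAT box and 1 GC box, and Hmgcs1 alone carries an exact sterol element.

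Cold raised several enzymes of the pathway together with Insig1, while the transcript of Srebf2 was not called changed. A gene was called at an adjusted p under 0.05 over all genes in limma, and changes below are log2 differences of means, 5 °C minus 28 °C. In null mice 4 of the 9 genes were called higher (Insig1, Hmgcs1, Fdps and Lss) and 0 lower, against 6.88% of all genes called higher and 6.33% called lower (13.2% in all). In wild-type mice 6 of 9 were called higher (the same 4, with Sqle and Cyp51) and 0 lower, against 8.35% and 8.3% of all genes (16.7% in all). The median change over the 9 genes was 0.60 in null and 0.74 in wild-type mice, where the median over all genes was -0.00 and 0.01. With array medians subtracted before the fit, 64.6% of all calls in null and 68.3% in wild-type mice were higher, against 52.0% and 50.1% as deposited, while the counts among the 9 genes were again 4 and 6. With whole fat pads, fewer cells of a type and less RNA per cell cannot be told apart. Values are comparable between mice for a gene, but not between genes, since each probe set has its own brightness.

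**Figure D2:**
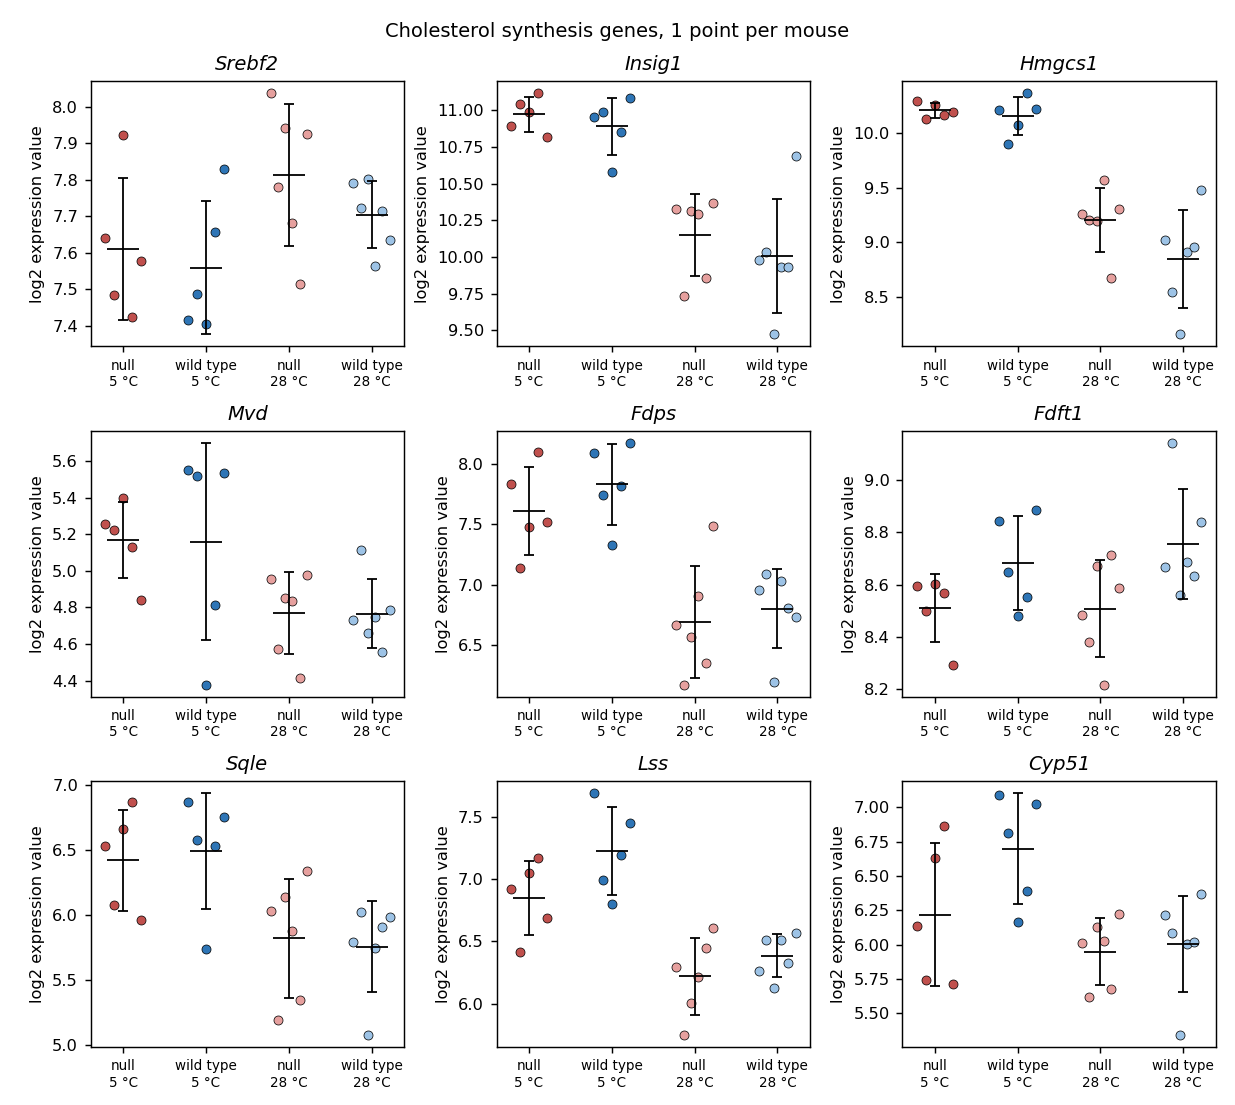
The log2 expression value of each gene in each mouse. Points are mice, long bars are group means and whiskers are SD (n = 5 at 5 °C, n = 6 at 28 °C), with null mice in red and wild-type mice in blue. For Hmgcs1 every mouse at 5 °C lies above every mouse at 28 °C of its genotype, while for Fdft1 and Srebf2 the groups overlap.

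Among the regulators, Srebf2 (chromosome 15, 82147269 to 82205379, GRCm38.p6) encodes the SREBP-2 precursor. It lies 3.59 Mb from the start of Ppara, on the chromosome that carries the null allele. Its log2 values were 7.43, 7.48, 7.58, 7.64 and 7.92 in null mice at 5 °C and 7.40, 7.41, 7.49, 7.66 and 7.83 in wild-type mice at 5 °C. The low, median and high were 7.51, 7.85 and 8.04 in null mice at 28 °C, and 7.56, 7.72 and 7.80 in wild-type mice at 28 °C. The groups overlapped, and the cold means were the lower ones. The change was -0.20 ± 0.10 (SE, adjusted p = 0.241) in null and -0.15 ± 0.10 (adjusted p = 0.393) in wild-type mice, so neither was called. Its 95% intervals, -0.42 to 0.01 and -0.36 to 0.07, leave room for a fall but for hardly any rise. Processing of the protein was not measured.

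Insig1 (chromosome 5, 28071412 to 28078662) encodes the sterol-sensing retention protein. It stood at 10.82, 10.90, 10.98, 11.04 and 11.12 in null mice at 5 °C, against a low, median and high of 9.73, 10.30 and 10.37 in null mice at 28 °C. In wild-type mice at 5 °C it stood at 10.58, 10.85, 10.96, 10.99 and 11.08, against 9.47, 9.96 and 10.69 at 28 °C. All null mice in the cold lay above all null mice at 28 °C. In wild type 1 mouse at 28 °C (replicate 6, at 10.69) reached into the cold range. Insig1 rose by 0.82 ± 0.16 (1.77-fold, adjusted p = 0.000926) in null and by 0.88 ± 0.16 (1.85-fold, adjusted p = 0.000351) in wild-type mice.

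Of the enzymes that lead to farnesyl diphosphate, Hmgcs1 (chromosome 13, 119690351 to 119708260) makes HMG-CoA in the cytosol, the substrate of the pathway's rate-limiting step. Its values were 10.13, 10.16, 10.19, 10.26 and 10.29 in null mice at 5 °C, against a low, median and high of 8.67, 9.23 and 9.57 in null mice at 28 °C. In wild-type mice they were 9.90, 10.08, 10.21, 10.22 and 10.37 at 5 °C, against 8.16, 8.93 and 9.48 at 28 °C. The temperatures did not overlap in either genotype. The 5 null mice in the cold were close together (SD 0.07, against 0.18 in wild-type mice at 5 °C and 0.29 to 0.45 in both 28 °C groups). Hmgcs1 had the largest change of the 9 genes, 1.01 ± 0.17 (2.01-fold, adjusted p = 0.000243) in null and 1.31 ± 0.17 (2.48-fold, adjusted p = 9.1e-06) in wild-type mice.

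Mvd (chromosome 8, 122433596 to 122443422) encodes mevalonate diphosphate decarboxylase, which makes isopentenyl diphosphate. Its signal was low: its values lie near the array medians over genes, which run between 4.63 and 4.77. It averaged 5.17 ± 0.21 in null and 5.16 ± 0.54 in wild-type mice at 5 °C (n = 5 each, SD), and 4.77 ± 0.22 in null and 4.77 ± 0.19 in wild-type mice at 28 °C (n = 6 each, SD). The wide wild-type spread came from values of 4.38, 4.81, 5.52, 5.54 and 5.55, of which the lowest belongs to replicate 3. The change was 0.40 ± 0.18 (adjusted p = 0.164) in null and 0.39 ± 0.18 (adjusted p = 0.151) in wild-type mice, and neither was called. Without wild-type replicate 3 of the cold group the wild-type change of Mvd was 0.59 with an adjusted p of 0.00900.

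Fdps (chromosome 3, 89093588 to 89101967) makes farnesyl diphosphate, where the branches to sterols, ubiquinone, dolichol and protein prenylation part. It stood at 7.14, 7.47, 7.52, 7.83 and 8.09 in null mice at 5 °C, against a low, median and high of 6.17, 6.61 and 7.49 in null mice at 28 °C. In wild-type mice it stood at 7.33, 7.74, 7.82, 8.09 and 8.17 at 5 °C, against 6.20, 6.88 and 7.08 at 28 °C. Wild-type mice did not overlap between temperatures, while in null mice 1 mouse at 28 °C (replicate 6) lay within the cold range. Fdps rose by 0.92 ± 0.21 (1.89-fold, adjusted p = 0.00506) in null and by 1.03 ± 0.21 (2.04-fold, adjusted p = 0.00155) in wild-type mice.

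The squalene steps differed from each other. Fdft1 (chromosome 14, 63145150 to 63181687) encodes squalene synthase, the first enzyme committed to sterols. It averaged 8.51 ± 0.13 in null and 8.68 ± 0.18 in wild-type mice at 5 °C (n = 5 each, SD), and 8.51 ± 0.19 in null and 8.76 ± 0.21 in wild-type mice at 28 °C (n = 6 each, SD). The temperatures overlapped in both genotypes. Its change was 0.00 ± 0.11 (adjusted p = 0.995, interval -0.23 to 0.23) in null and -0.07 ± 0.11 (adjusted p = 0.732, interval -0.30 to 0.16) in wild-type mice. Changes of the size seen in Hmgcs1, Fdps or Insig1 are outside both intervals.

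Sqle (chromosome 15, 59315092 to 59331193, 26.42 Mb from the start of Ppara) encodes squalene monooxygenase, which opens the way to ring closure and is a control point of the later pathway. It stood at 5.97, 6.08, 6.53, 6.67 and 6.87 in null mice at 5 °C, against a low, median and high of 5.19, 5.95 and 6.34 in null mice at 28 °C. In wild-type mice it stood at 5.74, 6.53, 6.58, 6.75 and 6.87 at 5 °C, against 5.08, 5.85 and 6.03 at 28 °C. In wild type all cold mice but 1 (replicate 3) lay above the 28 °C group, and in null mice the groups shared more of their range. The change was 0.60 ± 0.23 (1.52-fold, adjusted p = 0.0995) in null mice, which was not called, and 0.74 ± 0.23 (1.67-fold, adjusted p = 0.0321) in wild-type mice, which was. The wild-type call was lost without any one of 5 arrays (cold replicates 1, 2, 4 or 5, or replicate 3 at 28 °C), with an adjusted p of 0.0576 to 0.0923 and a change of 0.60 to 0.73.

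Lanosterol synthase, encoded by Lss (chromosome 10, 76531565 to 76557139), closes the sterol rings. It stood at 6.42, 6.69, 6.92, 7.05 and 7.17 in null mice at 5 °C, against a low, median and high of 5.75, 6.25 and 6.61 in null mice at 28 °C. In wild-type mice it stood at 6.80, 6.99, 7.20, 7.46 and 7.69 at 5 °C, against 6.13, 6.42 and 6.57 at 28 °C. Wild-type mice did not overlap between temperatures, while in null mice 1 cold mouse (replicate 2) lay below 2 mice at 28 °C. Lss rose by 0.63 ± 0.17 (1.55-fold, adjusted p = 0.0127) in null and by 0.84 ± 0.17 (1.79-fold, adjusted p = 0.000886) in wild-type mice.

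Cyp51 (chromosome 5, 4080674 to 4104697) encodes lanosterol 14α-demethylase, the enzyme after Lss. It stood at 5.71, 5.75, 6.13, 6.63 and 6.87 in null mice at 5 °C, against a low, median and high of 5.62, 6.02 and 6.22 in null mice at 28 °C. In wild-type mice it stood at 6.16, 6.39, 6.81, 7.03 and 7.09 at 5 °C, against 5.34, 6.05 and 6.37 at 28 °C. Of the cold null mice, 2 lay above all null mice at 28 °C and the other 3 lay within their range. The change was 0.27 ± 0.22 (1.21-fold, adjusted p = 0.509) in null mice, which was not called, and 0.69 ± 0.22 (1.62-fold, adjusted p = 0.0314) in wild-type mice, which was. The wild-type call was lost without any one of 4 arrays (cold replicates 1, 2 or 5, or replicate 3 at 28 °C), with an adjusted p of 0.0670 to 0.0945 and a change of 0.56 to 0.66.

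Across the 9 genes, the cold and 28 °C groups were free of overlap for 2 of 9 in null mice (Insig1 and Hmgcs1) and for 3 of 9 in wild-type mice (Hmgcs1, Fdps and Lss), all with the cold group higher. Over all genes the cold group was higher without overlap for 5.05% in null and 6.27% in wild-type mice, and lower without overlap for 4.06% and 5.53%. With each array left out in turn, the count called in null mice stayed at 4 of 9, and that in wild-type mice ran between 4 and 7. It was Sqle and Cyp51 that dropped out and Mvd that came in.

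The genotypes were then set against each other directly. In the difference of the cold effects (null minus wild type), 0 of 9 genes were called in limma, 0 of 9 had an unadjusted p under 0.05, and 0% of all genes were called. Over all genes 1137 (5.13%) had an unadjusted p under 0.05. The estimate was negative for 7 of the 9 genes, with a median of -0.11. The largest was that of Cyp51, -0.42 (interval -1.06 to 0.22, adjusted p = 0.982), followed by Hmgcs1, -0.31 (interval -0.81 to 0.20, adjusted p = 0.992). The intervals of Sqle, -0.82 to 0.55, and Fdps, -0.74 to 0.53, were as wide, so the calls of Sqle and Cyp51 in wild-type mice alone do not show that the genotypes differed. The narrowest were those of Srebf2, -0.36 to 0.25, and Fdft1, -0.25 to 0.40. Both cold effects come from 1 fit, and the genotype comparisons below use the same mice.

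**Figure D3:**
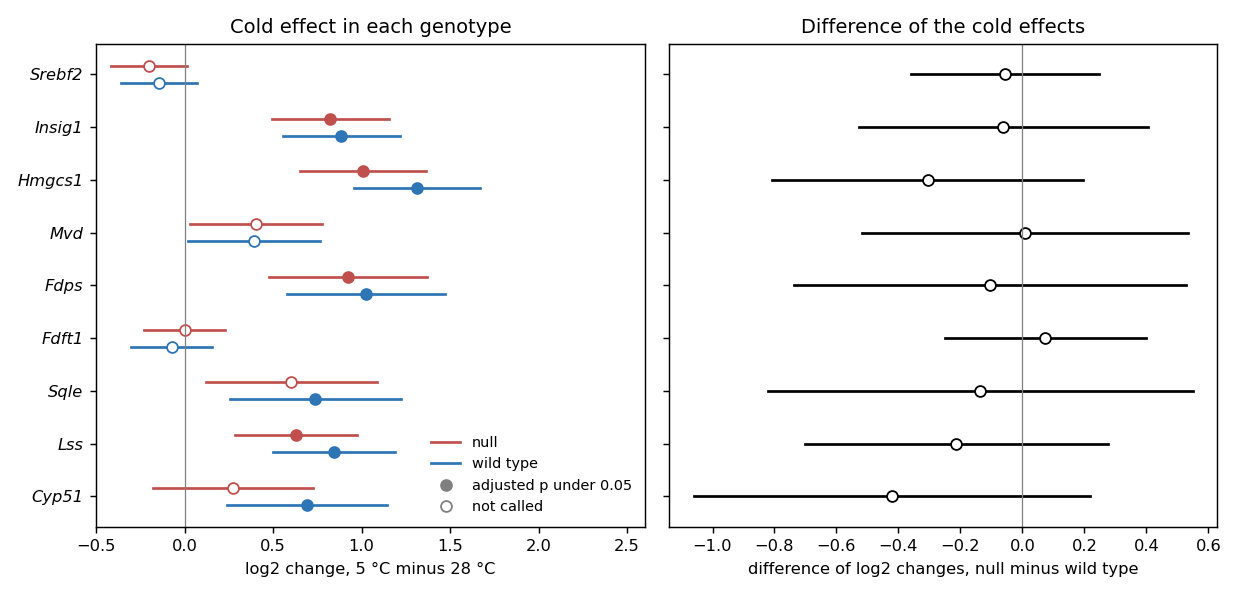
Cold effects (left, log2 change, 5 °C minus 28 °C) of null and wild-type mice, and their difference (right, null minus wild type). Points are estimates, lines are 95% intervals from the limma fit, and filled points have an adjusted p under 0.05. On the left 4 null and 6 wild-type points are filled, and on the right every interval includes 0.

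Between genotypes at 5 °C (null minus wild type), 0 of 9 genes were called in limma, against 0.149% of all genes (0.0406% higher and 0.108% lower). An unadjusted p under 0.05 was found for 2 of 9, and for 1476 of all genes (6.65%). These were Cyp51, which averaged 6.22 ± 0.52 in null and 6.70 ± 0.40 in wild-type mice (n = 5 each, SD), and Lss, which averaged 6.85 ± 0.30 in null and 7.23 ± 0.36 in wild-type mice. The difference was -0.48 (interval -0.95 to -0.01, unadjusted p = 0.0476, adjusted p = 0.746) for Cyp51 and -0.38 (interval -0.74 to -0.02, unadjusted p = 0.0405, adjusted p = 0.726) for Lss. For Cyp51 1 of 5 null mice lay above the wild-type mean, and for Lss 0 of 5 did, with overlap of the groups in both. Srebf2, the gene nearest to Ppara of the 9, differed by 0.05 (interval -0.17 to 0.28, adjusted p = 0.963).

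At 28 °C (null minus wild type), 0 of 9 genes were called in limma, against 0.194% of all genes (0.0451% higher and 0.149% lower). An unadjusted p under 0.05 was found for 2 of 9, in opposite directions, and for 1496 of all genes (6.74%). Hmgcs1 averaged 9.20 ± 0.29 in null and 8.84 ± 0.45 in wild-type mice (SD, n = 6 each), a difference of 0.36 (interval 0.02 to 0.70). Its unadjusted p was 0.039 and its adjusted p 0.71. For Fdft1 the difference was -0.25 (interval -0.47 to -0.03, unadjusted p = 0.0284, adjusted p = 0.649), and 0 of 6 null mice lay above the wild-type mean. Srebf2 differed by 0.11 (interval -0.10 to 0.31, adjusted p = 0.898). The genotypes overlapped at both temperatures for all 9 genes. Over all genes, null mice were higher without overlap for 0.568% and lower for 0.654% at 5 °C, and for 0.257% and 0.298% at 28 °C. At 28 °C the mean log2 value of 8 skeletal muscle markers ran between 6.37 and 9.09 in null and between 7.78 and 10.06 in wild-type mice. With that mean as a covariate the genotype difference of Hmgcs1 at 28 °C was 0.50 (adjusted p = 0.542), and 0 of 9 genes were called.

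Further steps of the sterol pathway were measured for 10 of 14 genes listed, and the rest are not analysed here. In null mice 3 of the 10 were called higher in the cold and 1 lower, and in wild-type mice 6 were higher and 1 lower, with medians of 0.24 and 0.45. Pmvk, which phosphorylates phosphomevalonate, rose by 0.96 in null and 1.11 in wild-type mice, beside Nsdhl, a C4-demethylation enzyme (0.77 and 0.76), and Tm7sf2, a C14-reductase (0.55 and 0.76). Lbr, the lamin B receptor, which also has C14-reductase activity, went the other way (-0.42 and -0.47) and was called in both genotypes. Dhcr7, the last reductase of the pathway, changed by 0.28 (adjusted p = 0.231) in null and 0.51 (adjusted p = 0.0124) in wild-type mice. Sc5d, a lathosterol desaturase, changed by 0.41 (adjusted p = 0.0983) in null and 0.58 (adjusted p = 0.0131) in wild-type mice. Msmo1, a methylsterol oxidase, changed by 0.20 (adjusted p = 0.319) in null and 0.40 (adjusted p = 0.0182) in wild-type mice.

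Genes that regulate SREBP or take up sterols were measured for 11 of 15 listed. In null mice 0 were called higher and 2 lower, and in wild-type mice 0 were higher and 1 lower, with medians of -0.03 and 0.04. Npc2, a lysosomal cholesterol carrier, fell by 0.21 in null and 0.29 in wild-type mice on the log2 scale. Mylip, the ligase that degrades the LDL receptor, changed by -0.41 (adjusted p = 0.0346) in null and -0.25 (adjusted p = 0.216) in wild-type mice. Srebf1, the SREBP gene linked more to fatty acid synthesis, changed by 0.06 (adjusted p = 0.827) in null and 0.35 (adjusted p = 0.0669) in wild-type mice, and was not called.

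Efflux and storage genes were measured for 11 of 14 listed, without Soat1 and Soat2, the enzymes that esterify cholesterol for storage. In each genotype 1 gene was called higher and 3 lower, with medians of -0.21 in null and -0.24 in wild-type mice. The 3 lower ones were the same in both: Cyp27a1, a sterol 27-hydroxylase (-0.41 in null and -0.51 in wild-type mice), Apoe, a lipoprotein component (-0.28 and -0.39), and Abca1, the exporter of cholesterol to apolipoprotein A-I (-0.34 and -0.33). The higher one was Nr1h3, the gene of LXRα, in null mice (0.32, adjusted p = 0.0301 in null, and 0.26, adjusted p = 0.0694 in wild type). In wild-type mice it was Osbp, an oxysterol-binding protein (0.20, adjusted p = 0.0542 in null, and 0.24, adjusted p = 0.0146 in wild type). Macrophages also express several of these genes, and 8 of 8 macrophage markers were lower in the cold in both genotypes. Their mean log2 value ran between 8.34 and 8.49 in null and 8.23 and 8.58 in wild-type mice at 5 °C, against 8.86 to 9.16 in null and 8.91 to 9.18 in wild-type mice at 28 °C. Their part in the efflux values was not tested.

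Isoprenoid branch genes, which serve products of the pathway other than sterols, were measured for 11 of 12 listed. In null mice 4 were higher and 0 lower, and in wild-type mice 5 were higher and 0 lower, with medians of 0.18 and 0.16. Pdss2, of ubiquinone side-chain synthesis, rose by 0.46 in null and 0.41 in wild-type mice, and Dolk, a dolichol kinase, by 0.35 and 0.54. Fatty acid synthesis genes, the other arm of SREBP control, were measured for 11 of 12 listed, with 10 higher and 0 lower in each genotype and medians of 0.72 in null and 0.67 in wild-type mice. The elongase Elovl6 rose by 1.61 in null and 1.33 in wild-type mice, and malic enzyme, Me1, by 1.00 and 1.03. Scd1, the stearoyl-CoA desaturase, changed by 0.06 in each genotype and was not called. No gene of these 5 lists was called in the difference of the cold effects or between genotypes at either temperature.

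**Figure D4:**
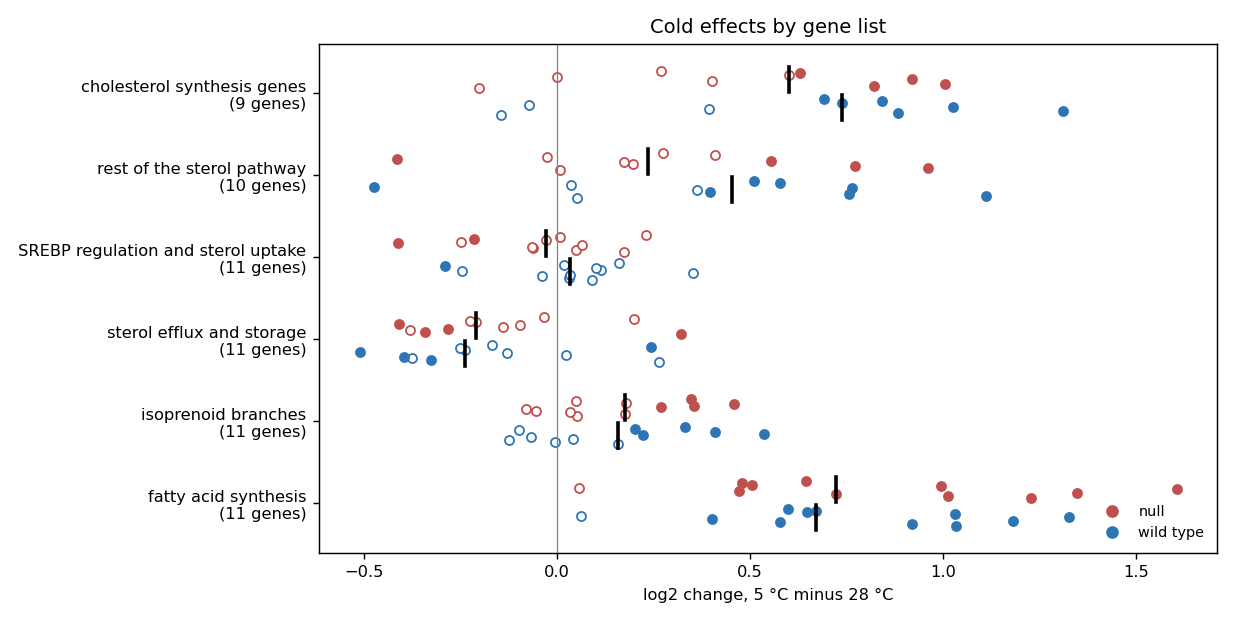
The cold effect (x axis, log2 change, 5 °C minus 28 °C) of each measured gene in the cholesterol synthesis genes and 5 further lists. Points are genes, null mice above in red and wild-type mice below in blue, filled where the adjusted p is under 0.05, and black bars are list medians. The medians of the cholesterol synthesis and fatty acid synthesis genes lie at 0.60 to 0.74. Those of the efflux and storage list, which lacks Soat1 and Soat2, lie below 0.

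Within groups most of the 9 genes varied together from mouse to mouse, with Srebf2 and Hmgcs1 following the others least. Each value was taken as its deviation from its group's mean over the 22 arrays, so neither temperature nor genotype enters, and the correlations are given as a description. The genes of a mouse share 1 array and 1 piece of tissue. Of 36 pairs 35 had a positive Pearson's r, 9 had r above 0.7, and the median was 0.50. The closest pair was Sqle with Cyp51 (r = 0.89, Spearman's rho = 0.86), and the lowest r was that of Hmgcs1 with Fdft1 (-0.14). Each gene's r with the mean of the other 8 was 0.95 for Sqle, 0.88 for Cyp51, 0.77 for Fdps, 0.76 for Insig1, 0.71 for Lss, 0.66 for Mvd, 0.49 for Fdft1, 0.41 for Hmgcs1 and 0.26 for Srebf2. Sqle followed the others most closely, and Hmgcs1, with the largest cold effect, was among the least alike within groups.

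The spread had its low end in a pair of mice, called the pair of low mice below. Wild-type replicate 3 at 5 °C had the lowest value of its group in 8 of 9 genes (mean deviation -0.42), and wild-type replicate 3 at 28 °C in 7 of 9 (-0.40). The latter mouse had the highest Srebf2 value of its group, 7.80. The shared number does not pair these wild-type mice in the labels. Next at the low end was null replicate 2 at 28 °C, lowest of its group in 5 of 9 genes (-0.30). Null replicate 5 followed at 28 °C (-0.24). At 5 °C null replicate 5 (-0.22) was lowest in 5 of 9 genes and above its group mean in 0 of 9, and null replicate 2 had -0.20. At the high end, null replicate 6 at 28 °C had the highest value of its group in 6 of 9 genes (mean deviation 0.30). The next were wild-type replicate 5 at 5 °C, above its group mean in 9 of 9 genes (0.25), wild-type replicate 6 at 28 °C (0.23), wild-type replicate 1 at 5 °C (0.23) and null replicate 4 at 5 °C (0.20). Without the pair of low mice, 34 of 36 pairs had a positive r, 3 had r above 0.7, and the median was 0.37. Then Sqle with Cyp51 had r = 0.85, and Hmgcs1 with Fdft1 had the lowest r, -0.41. The r with the mean of the other 8 was then 0.92 for Sqle, 0.24 for Hmgcs1 and 0.30 for Srebf2. Marker lists of cell types were set against the mean of the 9 genes in the same way, over 22 arrays and again over the 20 left without the pair of low mice. Epithelial markers had the largest r in size, -0.48 (rho = -0.50, then r = -0.48), with mean log2 values of 3.64 to 4.07 over all mice. These means lie below the array medians over genes, 4.63 to 4.77, so the signal of this list was low. The part of epithelial cells in the mouse-to-mouse values was not tested. The thermogenic list had r = 0.38 (rho = 0.43, then 0.20), skeletal muscle 0.35 (0.28, then 0.14) and adipocytes -0.29 (-0.34, then -0.45). Endothelium had r = -0.28 (-0.26, then -0.22), Schwann cells and myelin -0.07 (-0.04, then -0.02), lymphocytes 0.05 (0.09, then 0.21) and macrophages 0.02 (0.10, then 0.08). Muscle markers swung widely between pads, with a mean log2 value of 6.37 to 10.66.

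**Figure D5:**
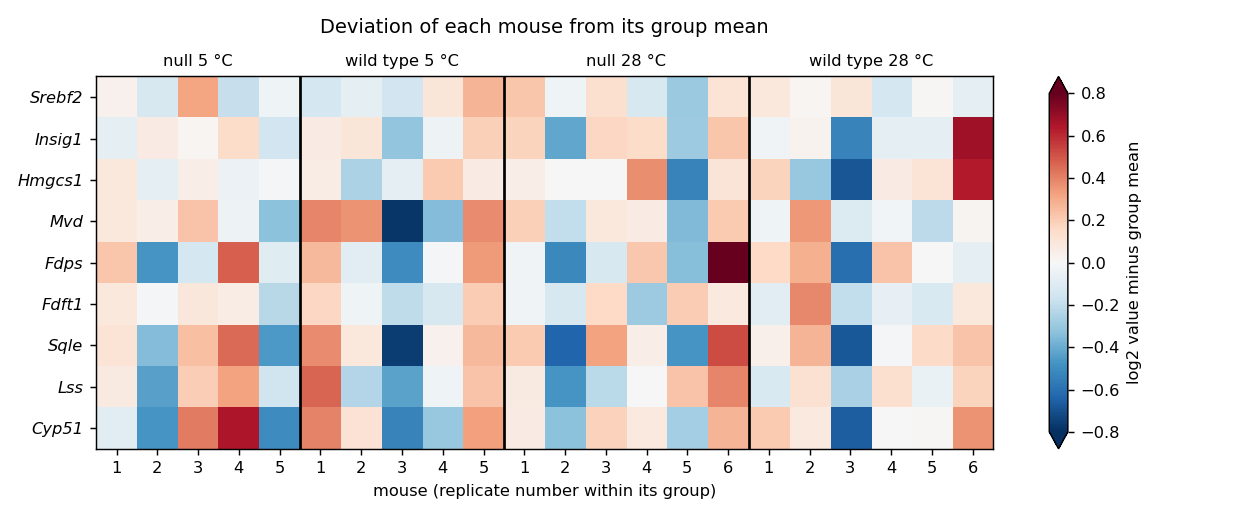
The deviation of each mouse from its group mean (colour, log2 units, red above and blue below) for the 9 genes (rows) in the 22 mice (columns, numbered within each group). Wild-type replicate 3 is blue in most rows at both temperatures, and null replicate 6 at 28 °C is red in every row.

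The genes most like the 9 were ranked by r between within-group deviations and the members' mean, over the 22 arrays, leaving out predicted and clone-named genes, olfactory and vomeronasal receptors, and small RNAs. Across the other 22171 genes the median r was -0.01, and 5% lay above 0.42. The 10 closest were Uxs1 (0.85), Dhcr7 (0.85), Mid1ip1 (0.83), Pmvk (0.81), Gtf2h3 (0.81), Paqr9 (0.81), Agpat2 (0.80), Ptger3 (0.80), Nsdhl (0.80) and Pgd (0.80). Dhcr7, Pmvk and Nsdhl are enzymes of the same pathway, and Pgd makes NADPH in the pentose phosphate route. Mid1ip1 encodes a partner of acetyl-CoA carboxylase, and Agpat2 an acyltransferase of triglyceride synthesis. Without the pair of low mice their r lay between 0.68 for Pmvk and 0.82 for Mid1ip1. Uxs1, which makes UDP-xylose, was not called in the cold (-0.04, adjusted p = 0.905 in null, and 0.03, adjusted p = 0.927 in wild type).

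Among the lists, the mean of the rest of the sterol pathway had r = 0.92 with the mean of the 9 genes within groups (rho = 0.80, and r = 0.86 without the pair of low mice). Fatty acid synthesis had r = 0.59 (rho = 0.53, r = 0.54) and the SREBP regulators had r = 0.37 (rho = 0.49, r = 0.49). Isoprenoid branches had r = -0.00 (rho = -0.09, r = -0.11) and efflux and storage r = -0.22 (rho = -0.19, r = 0.05).

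The tissue itself answered to cold in both genotypes. Ucp1, the uncoupling protein of thermogenic fat, averaged 12.45 ± 0.13 in null and 12.40 ± 0.08 in wild-type mice at 5 °C (n = 5 each, SD), and 5.55 ± 0.66 in null and 5.35 ± 0.47 in wild-type mice at 28 °C (n = 6 each, SD). In both genotypes 7 of 7 thermogenic markers were called higher. Ppara averaged 6.30 ± 0.56 in null and 6.59 ± 0.34 in wild-type mice at 5 °C, and 4.88 ± 0.43 in null and 4.72 ± 0.23 in wild-type mice at 28 °C, on a probe set whose place relative to the disrupted part is not given, so it does not check the genotype labels. Array-to-array correlations were 0.966 to 0.990. The adipocyte markers were bright in every group (lowest mean log2 value 10.66). Of 5 Schwann cell and myelin markers measured, 3 were called lower in the cold in both genotypes (Mal, Mbp and Pmp22). Of 7 adipocyte markers, 2 were called lower in null mice (Adipoq and Lep) and 1 in wild-type mice (Adipoq). Of 6 endothelial markers Tek was called lower in both genotypes and Kdr higher in wild-type mice. Of 8 muscle, 7 lymphocyte and 5 epithelial markers, 0 were called in either cold effect.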

How the data were processed

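Inguinal white fat of 22 mice was measured on arrays. The authors deposited log2 values for each probe set, and the submitters' processing notes name RMA, with no version in the sources used here. RMA equalises the arrays' distributions, so a shift shared by most genes would not be seen. The depth of an array is its signal, and the number of arrays limits the precision. Nothing in the labels ties mice of equal number.

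Of 41345 probe sets, 23521 had 1 gene symbol in the platform annotation, 1814 several and 16010 none. Where a gene had several probe sets (1082 genes) the brightest was used, leaving 22180 genes. A single limma fit (3.58.1, R 4.3.3) held the 4 groups, with 18 residual and 3.35 prior degrees of freedom. P-values were adjusted by Benjamini-Hochberg over all genes. The fit was tested on simulated data. Tables were handled with data.table (version 1.17.8), pandas 2.3.3, numpy 2.4.6 and scipy 1.17.1 under Python 3.11.15, and figures drawn with matplotlib 3.10.9. Named genes are the 9 members, Ppara and Ucp1, up to 4 genes of each list with the smallest p in the cold effects plus genes called against its direction, and the 10 genes most alike. Sc5d, Msmo1, Scd1 and the named markers were added after their values were seen. The members and lists were chosen with earlier results of these data known. Alternatives were other scalings, a filter on the dimmest 25%, the mean of probe sets, other variance models, array weights, only the groups compared, a replicate block and each array left out. Leaving out wild-type replicate 3 at both temperatures and a muscle covariate were added after seeing the data.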

Additional observations from a re-analysis of the deposited data

Results flagged for a closer look

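In 2 of 36 combinations of gene and group, 1 mouse stood apart from the rest of its group, and chance alone flags about 1 in 20. Both came from wild-type replicate 3 at 28 °C. It had the lowest Sqle value, 5.08, with the nearest of the other 5 mice at 5.75, a gap of 0.706 of the group's range. It also had the lowest Cyp51 value, 5.34, with the nearest mouse at 6.00, a gap of 0.643 of the range. Without this array neither Sqle nor Cyp51 was called in the wild-type cold effect.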

How the results depend on the processing

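Under each alternative run the counts of the 9 genes called kept within 1.5 times of the counts given first, in every comparison. The furthest was 4 against 6 in the wild-type cold effect. In the null cold effect the count was 4 with 1 array left out and 4 to 5 otherwise, and in the wild-type cold effect it ran between 4 and 7 with 1 array left out and between 6 and 7 otherwise. It was 0 throughout in both genotype comparisons and for the difference between the cold effects. With the replicate block the counts were 4 in null and 6 in wild-type mice. Arrays of equal replicate number were not more alike: 31 such pairs had a median correlation of deviations of -0.04, against 0.00 for 150 others. Of 22 arrays 4 were closest to their own number. These correlations cannot show whether any mice were paired. Beside the calls of Sqle, Cyp51 and Mvd already given, 2 further calls were gained with wild-type replicate 3 left out at both temperatures, a choice made from the values of these genes: Sqle in null mice (0.60, adjusted p = 0.0403) and Mvd in wild-type mice (0.57, adjusted p = 0.0198). Subtracting array medians shifted all genes by a median of 0.04 in null and 0.07 in wild-type mice. The low signal of Mvd and 5 or 6 mice per group limit what can be told of the smaller changes.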
